A study of Mus musculus with 12 samples.

Results

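Potassium channel subunit genes were examined in whole-lung RNA sequencing of 12 mice. The group holds every gene annotated as protein-coding whose symbol starts with Kcn, which gave 79 genes of the 23127 in the deposited table and of its 16698 protein-coding genes. All mice were C57BL6/J, with 4 mice in each of 3 groups. Controls were taken at 0 weeks, and the other groups received L-NAME, an inhibitor of nitric oxide synthase, at 0.5 g/L in the drinking water together with a diet of 60% lipid for 2 or 5 weeks. The series concerns pulmonary vascular remodelling in heart failure with preserved ejection fraction. Since no untreated mice were taken later than 0 weeks, treatment cannot be told apart from time on study. No age or sex is stated in the labels. Each library is 1 mouse and was made from flash-frozen whole lung, so p-values measure the spread between mice.

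Potassium channels let potassium leave the cell along its gradient and so set the resting membrane potential. In pulmonary arterial smooth muscle their closure depolarises the cell, opens voltage-gated calcium channels and leads to contraction. In the airway and alveolar epithelium they supply the driving force for ion and fluid transport, and in leukocytes for calcium entry. The pore-forming families differ in what opens them. Voltage-gated pores open on depolarisation, and most pores classed as calcium- or sodium-activated open on a rise of the named ion. Inward rectifiers pass current best near the resting potential, and tandem-pore channels carry a background leak. Accessory subunits such as the Kcne, Kcnab, Kcnip and Kcnmb products bind pores and alter their gating or surface level. The symbol prefix also takes in Kcnrg, which encodes a regulator rather than a subunit and is counted here with the voltage-gated accessory genes.

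All 79 genes were detected above 0.001 CPM (counts per 1000000 reads assigned to genes) in at least 1 library, and 65 were detected in all 12. The mean over the 12 libraries reached 1 CPM for 52 genes, which are those tested, and 10 CPM for 19 of them. The voltage-gated pores Kcna7 and Kcnc4 reached 1 CPM only through 2-week replicate 3, at 17.5 and 6.08 CPM. Without that library 50 Kcn genes reached 1 CPM. Both genes stay in the counts and directions given below. A further 20 genes averaged 0.1 to 1 CPM and 7 lay below 0.1 CPM. The share tested was 65.8%, against 84.0% of all protein-coding genes. By class, 21 of 33 voltage-gated pores, 8 of 12 voltage-gated accessory genes, 5 of 8 calcium- or sodium-activated pores and 3 of 4 calcium-activated accessory genes were tested. Of the inward rectifiers 8 of 13 were tested, and of the tandem-pore channels 7 of 9. The genes under 0.1 CPM were Kcnip1, Kcnj16, Kcnmb3, Kcnh8, Kcnk10, Kcnq3 and Kcnj9. Summed over all 79 genes, the level was 625 to 695 CPM in the controls, 591 to 663 CPM at 2 weeks and 525 to 674 CPM at 5 weeks, so the groups overlapped.

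The spacing of the lowest CPM values gave 26000000 to 34100000 gene-assigned reads per library. Lung epithelial markers were present in every library (6 alveolar type 2 genes summed to at least 18414 CPM), and 3 libraries carried transcripts that the others lacked or held at lower levels. In 2-week replicate 3 a set of 6 skeletal muscle markers summed to 8058 CPM, against 12.3 to 362 CPM elsewhere. In control replicate 2 the 6 adipocyte markers summed to 1070 CPM, against 25.9 to 138 CPM elsewhere. In 5-week replicate 3 the 6 red cell markers summed to 12376 CPM, against 799 to 3289 CPM elsewhere. In bulk tissue, fewer cells of a type and less RNA per cell cannot be told apart.

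Divided by exon length, Kcnk3 had the highest level of the 79 genes. It encodes an acid-sensitive tandem-pore leak channel of pulmonary arterial smooth muscle, and variants of the human gene cause heritable pulmonary arterial hypertension. Its mean was 18.1 ± 1.98 CPM per kb (SD, n = 12). Kcnj15, an epithelial inward rectifier, followed at 12.5 ± 2.20 CPM per kb and lay below Kcnk3 in 12 of 12 libraries, although the ranges of the genes over all libraries overlapped. Kcne2, an accessory subunit of voltage-gated pores, stood at 10.4 ± 1.80 CPM per kb. Kcnk2, a mechanically gated tandem-pore channel, stood at 8.82 ± 1.03 CPM per kb, and Kcnk1, a weak tandem-pore leak channel, at 7.52 ± 0.81 CPM per kb. The next places were taken by the inward rectifier Kcnj2 (6.53 ± 1.75 CPM per kb), the epithelial and cardiac pore Kcnq1 (6.45 ± 0.36), the tandem-pore channel Kcnk6 (6.02 ± 0.76), and the inward rectifiers Kcnj13 (5.57 ± 0.76) and Kcnj8 (5.27 ± 1.22). Each of these neighbours in the order had ranges that overlapped. Kcnk3, Kcnj15, Kcnk2 and Kcnq1 overlap long noncoding RNA genes on the opposite strand. As strandedness is not stated, their levels may include reads of those genes. Kcna5, a voltage-gated pore of pulmonary arterial smooth muscle that hypoxia inhibits, averaged 0.72 CPM per kb.

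**Figure D1:**
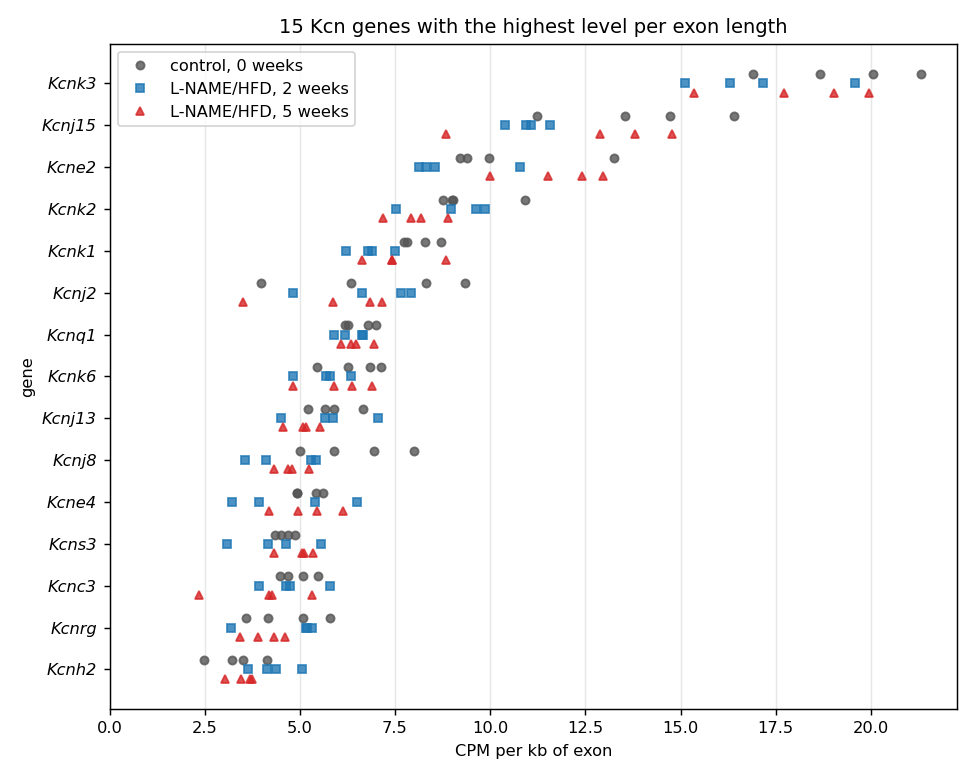
Level per exon length (CPM per kb, horizontal axis) of the 15 Kcn genes with the highest values, with 1 point per library and the 3 groups in separate colours and symbols. Kcnk3 heads the order in all 12 libraries, and the ranges of neighbouring genes overlap.

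Of the tested genes, 18 had a highest library under 2 times the lowest, and 6 had one over 5 times the lowest. The coefficient of variation over the 12 libraries ran from 5.52% for Kcnq1 to 241% for Kcna7, with a median of 21.3%. Kcnq1 stood at 27.8, 28.7, 25.6 and 25.3 CPM in the controls. It stood at 27.1, 27.3, 24.1 and 25.3 CPM at 2 weeks and at 28.4, 26.5, 24.9 and 25.9 CPM at 5 weeks, all within the same narrow band.

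No potassium channel gene passed the threshold between any pair of groups. In limma with Benjamini-Hochberg adjustment over all 15562 tested genes, 0 of 52 passed an adjusted p of 0.05 in each comparison and in the F-test over the 3 groups, and the share of all tested genes that passed was likewise 0% in each. For 2 against 0 weeks, 7 of 52 had an unadjusted p under 0.05 (13.5%, against 9.24% of all tested genes), 3 higher and 4 lower at 2 weeks. For 5 against 0 weeks there were 3 of 52 (5.77%, against 8.63%), all lower at 5 weeks. For 5 against 2 weeks there were 7 of 52 (13.5%, against 10.9%), 2 higher and 5 lower at 5 weeks, and in the F-test there were 6 (against 10.8%). The smallest adjusted p was 0.41 at 2 weeks against controls (Kcnj8) and 0.288 between the treated groups (Kcnab2). The comparisons with 0 weeks share the 4 control libraries.

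The median log2 difference over the 52 genes was -0.01 for 2 against 0 weeks, with 25 genes above 0, where 55.1% of all tested genes were above 0. For 5 against 0 weeks it was -0.10, with 15 genes above 0 and 37 below, where 55.0% of all tested genes were above 0. For 5 against 2 weeks it was -0.11, with 19 above and 33 below, where 50.2% of all tested genes were above 0. Over all tested genes the medians were 0.02, 0.02 and 0.00. In 5-week replicate 3, 14 of the 52 genes had their lowest value of the 12 libraries, more than in any other library. Without that library the count for 5 against 0 weeks was 22 above 0 and 31 below, and without it, control replicate 2 and 2-week replicate 3 it was 23 above and 27 below. The part of the red cell transcripts in the counts was not tested.

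**Figure D2:**
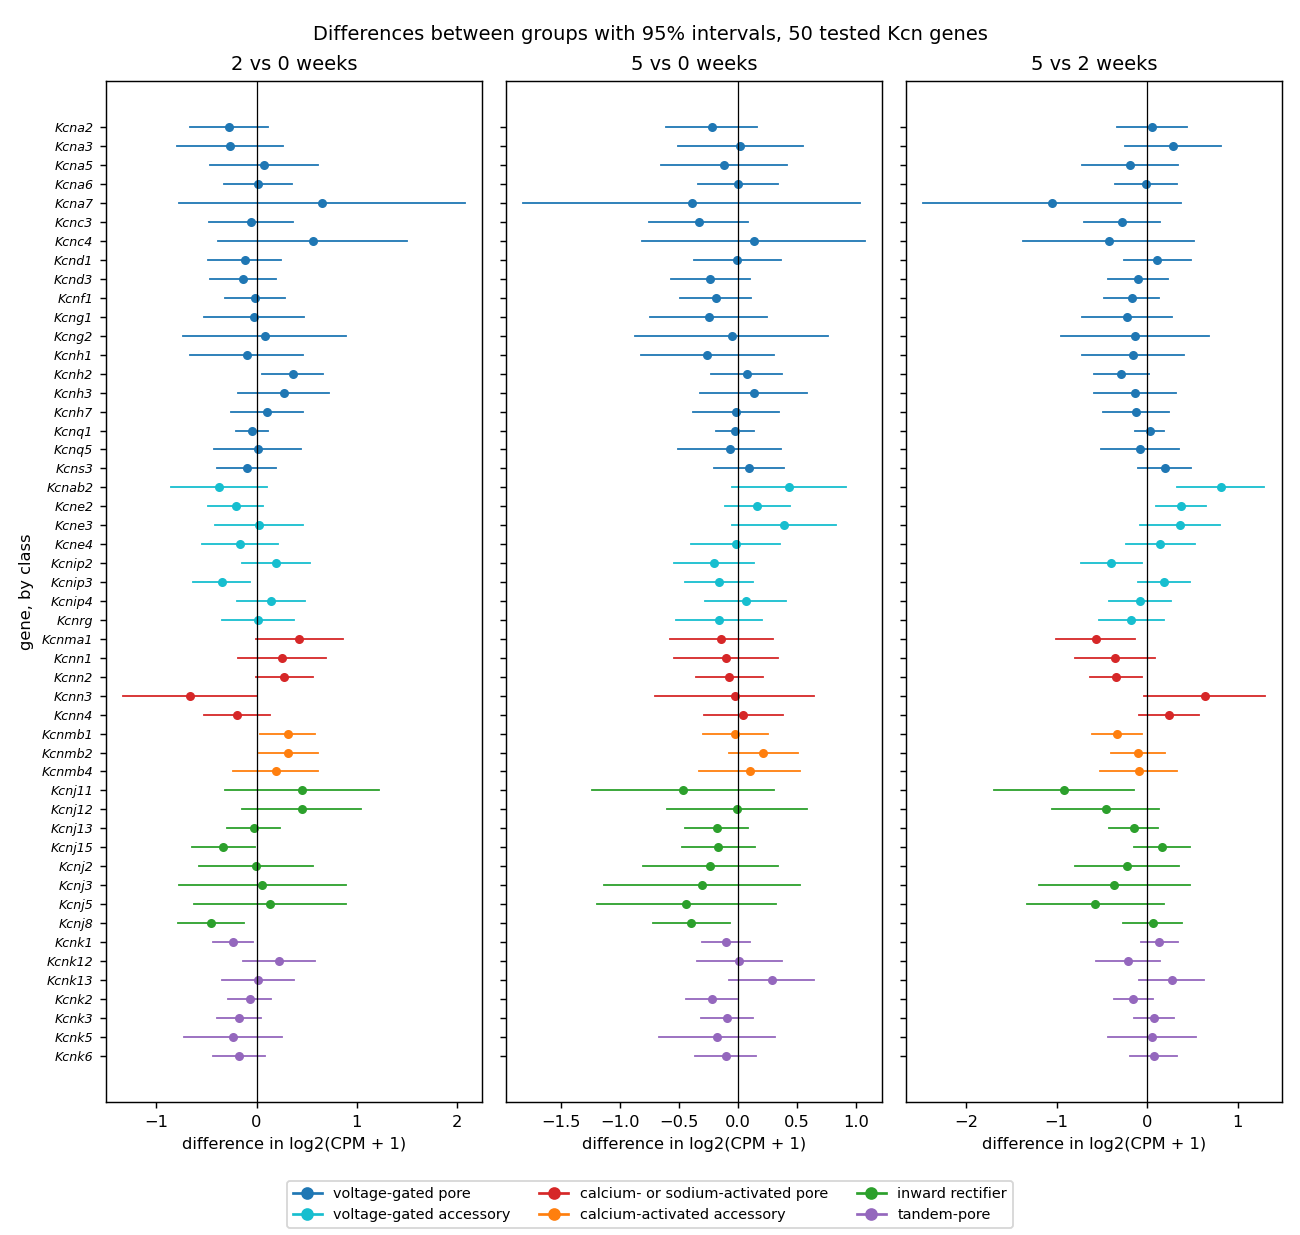
Difference in log2(CPM + 1) between groups (horizontal axis, 1 panel per comparison, with separate scales) for 50 of the 52 tested Kcn genes, ordered and coloured by class, with 95% intervals from limma that are not adjusted for the number of genes. The 8 inward rectifiers lie below 0 in the panel of 5 against 0 weeks, and the intervals of Kcna7 and Kcnc4 are the widest in the panel of 2 against 0 weeks.

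Kcnk3 (ENSMUSG00000049265, chromosome 5, 30745514 to 30782615 on the plus strand) was measured at 67.2, 84.8, 79.7 and 74.2 CPM in the controls. It stood at 64.8, 77.8, 60.1 and 68.2 CPM at 2 weeks and at 75.7, 79.3, 61.0 and 70.4 CPM at 5 weeks. Positions are given as the deposited table places them, in a build that the table does not name. The highest 2 libraries were controls and the lowest was a 2-week library, but all 3 groups overlapped. The log2 difference was -0.17 ± 0.10 (SE) for 2 against 0 weeks, with a 95% interval from -0.39 to 0.05. At 5 weeks it was -0.10 ± 0.10 against controls (interval -0.32 to 0.13) and 0.08 ± 0.10 against 2 weeks (interval -0.14 to 0.30). Exact two-sided permutation tests gave p = 0.171, 0.4 and 0.486 in that order, each 0.729 after adjustment over the 6 tests of Kcnk3 and Kcna5. The smallest p that 4 against 4 mice allow is 0.0286.

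Kcna5 (ENSMUSG00000045534, chromosome 6, 126509514 to 126512375 on the minus strand) was measured at 2.69, 3.58, 0.944 and 1.48 CPM in the controls. It stood at 2.34, 1.88, 3.14 and 1.53 CPM at 2 weeks and at 1.88, 1.65, 2.34 and 1.32 CPM at 5 weeks. The controls held both the highest and the lowest library and enclosed the other groups. The log2 difference was 0.07 ± 0.25 (SE) for 2 against 0 weeks, with an interval from -0.46 to 0.61, so its direction was not determined. At 5 weeks it was -0.12 against controls (interval -0.65 to 0.42) and -0.19 against 2 weeks (interval -0.73 to 0.35). The exact permutation p was 0.8, 0.714 and 0.429, with adjusted values of 0.8, 0.8 and 0.729.

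The other tandem-pore channels of high level per length had 2-week and 5-week means below the control mean. Kcnk1 stood at 18.5, 17.5, 17.3 and 19.4 CPM in the controls and at 15.2, 16.8, 15.4 and 13.9 CPM at 2 weeks, so that every 2-week library lay below every control. The mean at 2 weeks was 0.842 of that in the controls (log2 difference -0.23 ± 0.09, limma adjusted p = 0.484), and the 5-week libraries (14.8 to 19.7 CPM) overlapped both groups. Kcnk2 stood at 53.9, 43.3, 44.4 and 44.7 CPM in the controls and at 40.5, 43.9, 35.5 and 39.2 CPM at 5 weeks. A single 5-week library, at 43.9 CPM, lay above the lowest control, and the log2 difference was -0.22 ± 0.10 (limma adjusted p = 0.575). Kcnk6 averaged 26.7 ± 3.07 CPM in the controls, 23.5 ± 2.62 CPM at 2 weeks and 24.9 ± 3.67 CPM at 5 weeks (SD, n = 4), with overlapping groups. Among all 7 tested tandem-pore genes, 5 were below 0 for 2 against 0 weeks and 5 for 5 against 0 weeks, and 0 passed (limma).

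Groups whose libraries separated fully were about as frequent among these genes as in the whole table for 2 against 0 weeks. For 2 against 0 weeks the groups did not overlap for 3 of 52 genes (5.77%, against 5.32% of all tested genes), namely Kcnk1 and Kcna2, which were lower, and Kcnmb1, which was higher. For 5 against 0 weeks they did not overlap for 2 of 52 (3.85%, against 5.01%), Kcnd3 and Kcnf1, both lower. For 5 against 2 weeks the only such gene was Kcnn1 (1.92%, against 4.94%), which was lower and was chosen after its values were seen. It encodes a small-conductance calcium-activated pore and stood at 1.59 to 1.94 CPM at 5 weeks, against 2.04 to 4.19 CPM at 2 weeks, with the highest value in 2-week replicate 3.

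All 8 tested inward rectifiers had a log2 difference below 0 for 5 against 0 weeks, from -0.46 to -0.01 with a median of -0.27, and 0 of 8 passed (limma). Over all tested genes 6996 of 15562 were below 0. The count was 7 of 8 without 5-week replicate 3, without control replicate 2 or without control replicate 3, and 6 of 8 with library weights. Kcnj8 (ENSMUSG00000030247, chromosome 6, 142510563 to 142517340 on the minus strand) encodes the pore of the ATP-sensitive channel of pericytes and vascular smooth muscle. It stood at 15.01, 17.7, 12.7 and 20.35 CPM in the controls, at 9.06, 13.5, 10.5 and 13.8 CPM at 2 weeks and at 12.2, 10.98, 13.3 and 11.95 CPM at 5 weeks. Of the 4 controls, 3 lay above all 8 treated libraries and the fourth lay among them.

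The mean of Kcnj8 at 2 weeks was 0.713 of that in the controls, with a log2 difference of -0.45 ± 0.15 (interval -0.78 to -0.13, limma adjusted p = 0.41). At 5 weeks it was 0.737 of the control mean, with a log2 difference of -0.39 ± 0.15 (interval -0.72 to -0.07, limma adjusted p = 0.549). Leaving out single libraries gave -0.56 to -0.35 at 2 weeks and -0.50 to -0.29 at 5 weeks. Abcc9, the sulfonylurea receptor that completes this channel in vascular cells, averaged 29.4 ± 8.69 CPM in the controls, 26.3 ± 8.27 CPM at 2 weeks and 21.7 ± 4.13 CPM at 5 weeks (SD, n = 4), with limma adjusted p of 0.831 and 0.657 against controls. A set of 6 pericyte markers summed to 752 to 982 CPM in the controls, 726 to 874 CPM at 2 weeks and 698 to 912 CPM at 5 weeks. These sums overlapped between groups, and their part in the Kcnj8 values was not tested.

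Kcnj15 was measured at 93.0, 85.4, 70.9 and 104 CPM in the controls. It stood at 73.0, 65.5, 69.9 and 69.0 CPM at 2 weeks and at 81.3, 93.2, 55.8 and 87.1 CPM at 5 weeks. A single control lay within the 2-week range, and the lowest value of all was that of 5-week replicate 3. The log2 difference was -0.33 ± 0.14 for 2 against 0 weeks (limma adjusted p = 0.515). Kcnj2, which stabilises the resting potential in endothelium and muscle, varied more within groups than between them, with 21.6 to 50.8 CPM in the controls, 26.2 to 43.1 CPM at 2 weeks and 19.0 to 39.0 CPM at 5 weeks. Kcnj13, an inward rectifier of epithelia and airway muscle, averaged 7.44 ± 0.77, 7.33 ± 1.33 and 6.45 ± 0.52 CPM at 0, 2 and 5 weeks (SD, n = 4), and it overlaps Gigyf2 on the opposite strand.

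The large-conductance calcium-activated channel relaxes smooth muscle and is built from the Kcnma1 pore and Kcnmb accessory subunits. Kcnmb1 (ENSMUSG00000020155, chromosome 11, 33913013 to 33923641 on the plus strand), the subunit of smooth muscle, stood at 8.23, 6.06, 7.93 and 7.19 CPM in the controls and at 10.3, 9.84, 8.61 and 8.57 CPM at 2 weeks. At 5 weeks it stood at 7.15, 9.15, 6.43 and 6.33 CPM. Every 2-week library lay above every control, and the 5-week libraries overlapped both groups. The mean at 2 weeks was 1.27 times that of the controls (log2 difference 0.31 ± 0.13, limma adjusted p = 0.492), and the log2 difference of 5 against 2 weeks was -0.33 ± 0.13 (limma adjusted p = 0.367). Kcnmb1 lies within Kcnip1 on the opposite strand, which averaged 0.089 CPM.

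Kcnma1 was measured at 1.87, 1.68, 1.10 and 1.44 CPM in the controls. It stood at 1.63, 2.97, 3.46 and 1.76 CPM at 2 weeks and at 1.12, 1.96, 0.84 and 1.30 CPM at 5 weeks. The highest 2 values were those of 2-week replicates 2 and 3, and the groups overlapped. The log2 difference was 0.43 ± 0.20 for 2 against 0 weeks (limma adjusted p = 0.545) and -0.57 ± 0.20 for 5 against 2 weeks (limma adjusted p = 0.336). All 3 tested accessory genes of this channel, Kcnmb1, Kcnmb2 and Kcnmb4, were above 0 for 2 against 0 weeks with log2 differences of 0.19 to 0.32, and below 0 for 5 against 2 weeks, with 0 of 3 passing in either comparison (limma).

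Smooth muscle markers had their highest sums at 2 weeks as well. The 8 markers summed to 1215 to 1805 CPM at 2 weeks, 1072 to 1225 CPM in the controls and 950 to 1183 CPM at 5 weeks, so that every 2-week library lay above every 5-week library. The highest sum was that of 2-week replicate 3, the library with skeletal muscle transcripts, and the other 2-week libraries held 1215 to 1621 CPM. For 2 against 0 weeks 8 of 8 markers were above 0 (median log2 difference 0.41) and for 5 against 2 weeks 8 of 8 were below 0 (median -0.48), with 0 of 8 passing in either (limma). Their part in the Kcnmb1 and Kcnma1 values was not tested. Kcnn2, a small-conductance calcium-activated pore, averaged 2.79 ± 0.35, 3.61 ± 0.54 and 2.62 ± 0.44 CPM at 0, 2 and 5 weeks (SD, n = 4), with a log2 difference of -0.35 ± 0.13 for 5 against 2 weeks (limma adjusted p = 0.362).

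**Figure D3:**
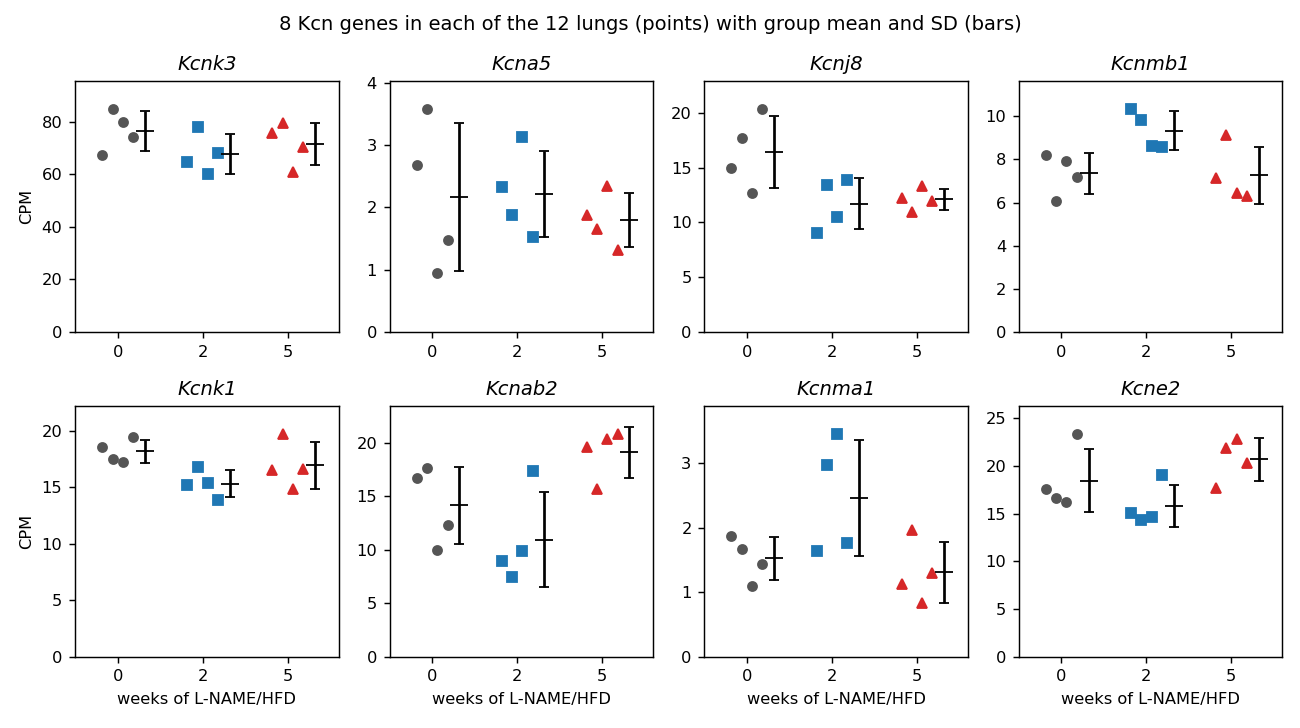
Level in CPM (vertical axis from 0, separate scale per gene) of 8 Kcn genes in each of 12 lungs by weeks of treatment, with points for single libraries and black bars for the group mean and SD. The 2-week libraries of Kcnk1 lie below and those of Kcnmb1 above all controls, and 3 of the 4 controls of Kcnj8 lie above all treated libraries.

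Among the 21 tested voltage-gated pores, 12 at 2 weeks and 15 at 5 weeks were below 0 against controls, 16 were below 0 for 5 against 2 weeks, and 0 passed (limma). The last count was 13 of 22 without 5-week replicate 3. Kcnh2, which carries the rapid delayed rectifier current of the heart, stood at 17.01, 20.04, 15.5 and 12.02 CPM in the controls and at 21.2, 24.5, 20.1 and 17.6 CPM at 2 weeks. Of the 2-week libraries 3 lay above all controls and 1 within their range, and the log2 difference was 0.36 ± 0.14 (limma adjusted p = 0.463). The 5-week mean of Kcnh2 was 16.9 ± 1.59 CPM (SD, n = 4), close to the control mean of 16.1 ± 3.33 CPM.

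Kcna2, a pore of the same subfamily as Kcna5, stood at 17.5, 19.7, 16.7 and 20.004 CPM in the controls and at 14.9, 15.4, 13.8 and 16.2 CPM at 2 weeks. The groups did not overlap, while the 5-week libraries ran from 9.40 CPM in replicate 3 to 21.3 CPM. The log2 difference of 2 against 0 weeks was -0.27 ± 0.18 (limma adjusted p = 0.638). Kcnd3, a pore of transient outward current, stood at 2.80 to 4.08 CPM in the controls and 2.31 to 2.58 CPM at 5 weeks, with a log2 difference of -0.23 ± 0.15 (limma adjusted p = 0.681). Kcnf1, a modulatory pore subunit that forms no channel alone, stood at 1.49 to 1.74 CPM in the controls and 1.06 to 1.47 CPM at 5 weeks, with a log2 difference of -0.19 ± 0.14 (limma adjusted p = 0.71).

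Kcnu1, which encodes a pore of the large-conductance family known from sperm, was too low to be tested. It stood at 0.229, 0.267, 0.189 and 0.41 CPM in the controls and at 0.0385, 0.108, 0.0626 and 0.0587 CPM at 5 weeks, with no overlap. At 2 weeks it stood at 0.312, 0.263, 0.16 and 0.432 CPM. One read corresponded to 0.0293 to 0.0384 CPM, so the 5-week values rest on a few reads each and no fold is given. Of the 27 Kcn genes under 1 CPM, only Kcnu1 had a treated group that did not overlap the controls. The share of all genes under 1 CPM without overlap was not counted, so no background is given for it.

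Accessory subunits of voltage-gated channels gave the smallest adjusted p-values of the group for 5 against 2 weeks. Kcnab2 (ENSMUSG00000028931, chromosome 4, 152475199 to 152562367 on the minus strand), a cytosolic subunit of Shaker-type channels with an aldo-keto reductase fold, stood at 16.7, 17.6, 10.01 and 12.3 CPM in the controls. It stood at 8.94, 7.47, 9.88 and 17.4 CPM at 2 weeks and at 19.6, 15.7, 20.3 and 20.9 CPM at 5 weeks. Of the 2-week libraries 3 lay below every other library, and replicate 4 lay above 1 of the 5-week libraries. The 5-week mean was 1.75 times the 2-week mean, with a log2 difference of 0.81 ± 0.22 (interval 0.33 to 1.29, limma adjusted p = 0.288). Without 2-week replicate 4 the difference was 1.04 and passed (limma adjusted p = 0.0182), as did 2.48% of all tested genes, and with library weights it was 0.95 (limma adjusted p = 0.0189), as did 5.66% of all tested genes. In the F-test over the 3 groups it passed in the same 2 alternatives, as did 0.848% and 1.84% of all tested genes, and with library weights 0 of 52 passed for 2 against 0 weeks, where 0.116% of all tested genes did. Against controls the log2 difference of Kcnab2 was -0.38 ± 0.22 at 2 weeks and 0.43 ± 0.22 at 5 weeks, neither of which passed (limma adjusted p = 0.609 and 0.617). Kcnab2 overlaps Nphp4 on the opposite strand.

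Kcne2 stood at 15.1, 14.3, 14.7 and 19.1 CPM at 2 weeks and at 17.7, 21.9, 22.9 and 20.36 CPM at 5 weeks, with controls at 17.6, 16.6, 16.3 and 23.4 CPM. A single 2-week library lay within the 5-week range, and the log2 difference of 5 against 2 weeks was 0.37 ± 0.13 (limma adjusted p = 0.332). Kcne3, a partner of Kcnq1 in epithelia, stood at 0.755 to 1.45 CPM in the controls and 1.11 to 2.19 CPM at 5 weeks (log2 difference 0.39 ± 0.20, limma adjusted p = 0.619). Kcnip3, a calcium sensor that binds Kcnd pores and also acts as a transcriptional repressor, stood at 4.68 to 5.98 CPM in the controls and 2.98 to 4.97 CPM at 2 weeks (log2 difference -0.35 ± 0.13, limma adjusted p = 0.458).

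The levels of Kcnab2, the small-conductance calcium-activated pore Kcnn3 and the voltage-gated pore Kcnh4 split the libraries as alveolar macrophage and T cell markers did. Kcnn3 and Kcnh4 were chosen after their values were seen. The 6 macrophage markers summed to 403 to 454 CPM in control replicate 3 and 2-week replicates 1, 2 and 3, and to 697 to 894 CPM in the other 8 libraries. Summed T cell markers (5 genes) stood at 18.3 to 19.96 CPM in the same 4 libraries and at 23.01 to 48.2 CPM in the rest. Sums of neutrophil, NK (natural killer), B cell and monocyte markers did not have these 4 libraries as their lowest. Smooth muscle marker sums (8 genes) split the libraries in reverse. They stood at 1225 to 1805 CPM in these 4 libraries and at 950 to 1215 CPM in the rest. The same 4 libraries were the lowest for all 3 Kcn genes. Kcnn3 stood at 3.88 to 5.06 CPM in them and at 5.68 to 12.4 CPM in the rest, Kcnab2 at 7.47 to 10.01 CPM and 12.3 to 20.9 CPM, and Kcnh4 at 0.0321 to 0.249 CPM and 0.538 to 1.11 CPM. For 5 against 2 weeks 6 of 6 macrophage markers were above 0, with a median log2 difference of 0.77 and 0 of 6 passing (limma). All 6 neutrophil, 6 NK, 6 B cell and 5 T cell markers were above 0 as well, as were 5 of 6 monocyte markers. Their medians ran from 0.56 (T cell) to 1.596 (neutrophil), with 0 passing (limma). Kcnn3 had a log2 difference of 0.64 ± 0.31 (limma adjusted p = 0.488). The part of alveolar macrophage, other leukocyte or smooth muscle transcripts in the values of Kcnab2, Kcnn3 and Kcnh4 was not tested.

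Kcnj3 and Kcnj5, which together form the acetylcholine-gated channel of atrial myocytes, followed the cardiomyocyte markers, which mouse lung holds in the muscle sleeves of its pulmonary veins. Both genes were chosen after their values were seen. In 2-week replicate 2 the 10 markers summed to 2127 CPM, the highest of the 12 libraries, and Kcnj3 and Kcnj5 were also highest there, at 16.9 and 14.0 CPM. In 2-week replicate 4 and 5-week replicate 4 the markers were lowest (555 and 594 CPM), and so were Kcnj3 (2.86 and 2.75 CPM) and Kcnj5 (3.22 and 2.46 CPM). The ventricular marker Myl2 was listed at 0 in at least 1 library. For 5 against 0 weeks the log2 differences were -0.30 ± 0.39 for Kcnj3 and -0.44 ± 0.35 for Kcnj5 (limma adjusted p = 0.825 and 0.725), and 8 of 9 tested cardiomyocyte markers were below 0. The part of cardiomyocyte transcripts in these differences was not tested.

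**Figure D4:**
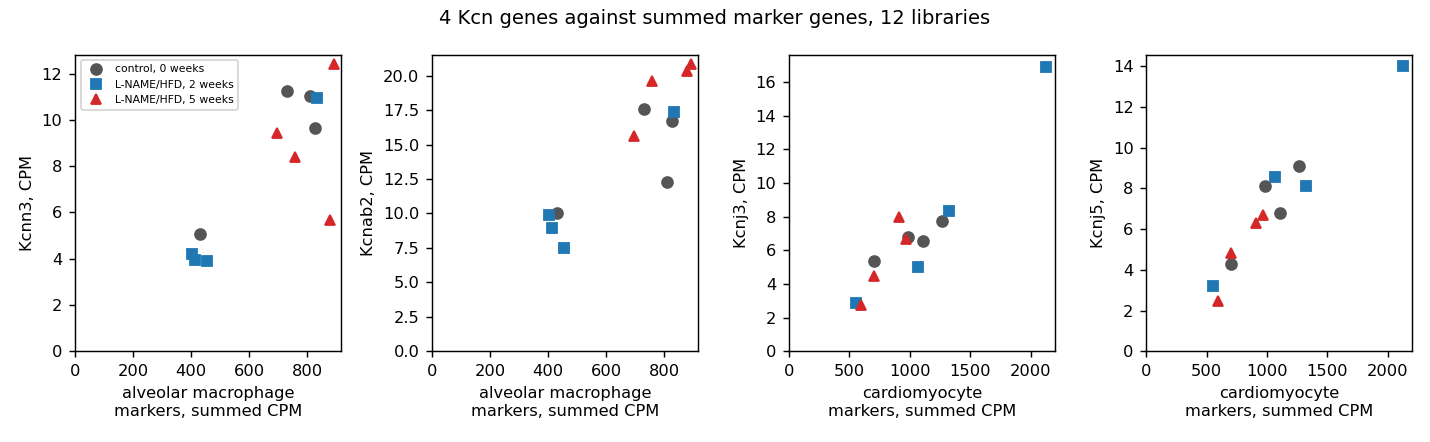
Level in CPM of Kcnn3, Kcnab2, Kcnj3 and Kcnj5 (vertical axes) against the summed CPM of 6 alveolar macrophage or 10 cardiomyocyte markers (horizontal axes) in 12 libraries, with groups by colour and symbol. The 4 libraries with macrophage sums of 403 to 454 CPM are the lowest for Kcnn3 and Kcnab2, and 2-week replicate 2 is the highest for Kcnj3 and Kcnj5.

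A single library held the highest value of 6 genes that were chosen after their values were seen. In 2-week replicate 3, the library with skeletal muscle transcripts, the voltage-gated pore Kcna7 stood at 17.5 CPM, against 0.133 to 2.21 CPM in the other 11 libraries. The fast voltage-gated pores Kcnc1 and Kcnc4 stood at 6.59 and 6.08 CPM, against at most 1.22 and 0.997 CPM elsewhere, and the modulatory pore Kcng4 at 5.95 CPM, against at most 0.762 CPM. The inward rectifiers Kcnj12 and Kcnj11, the latter the pore of the ATP-sensitive channel of skeletal muscle and beta cells, stood at 13.8 and 12.3 CPM, against at most 5.30 and 7.44 CPM. Control replicate 2, with the second highest skeletal marker sum of 362 CPM, was second highest for Kcna7, Kcnc1 and Kcng4. Of the 6 skeletal muscle markers, Acta1, Myh1 and Myh4 were listed at 0 in at least 1 library each. Without 2-week replicate 3 the 2-week mean of Kcna7 was 0.56 ± 0.43 CPM (SD, n = 3), in place of 4.79 ± 8.46 CPM (SD, n = 4). The change was smaller for Kcnj11, whose 2-week mean was 5.10 ± 2.43 CPM (SD, n = 3), in place of 6.90 ± 4.12 CPM (SD, n = 4). The part of skeletal muscle transcripts in these values was not tested.

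**Figure D5:**
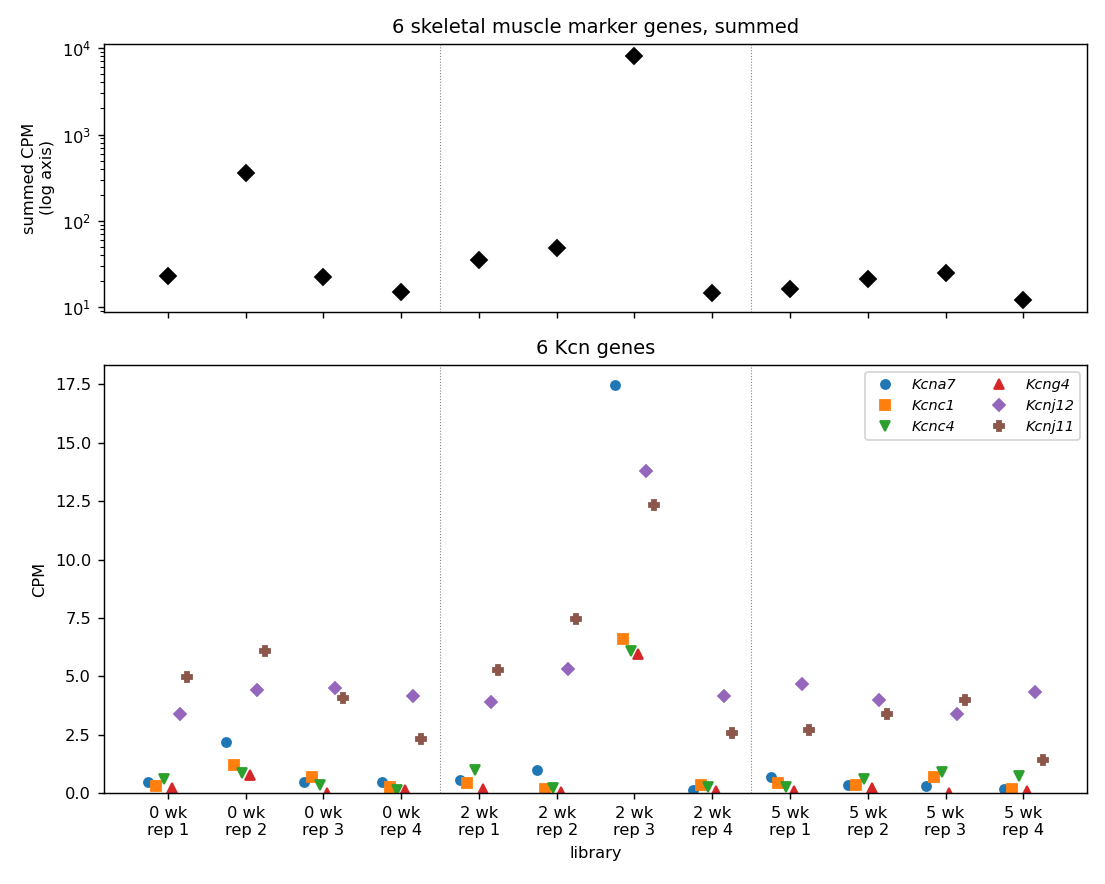
Summed CPM of 6 skeletal muscle markers (upper panel, log axis) and CPM of 6 Kcn genes (lower panel) in the 12 libraries in order of group. In 2-week replicate 3 the marker sum is 8058 CPM and each of the 6 genes has its highest value.

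The sequence before the start site is shown for Kcna7, Kcng4 and Kcnj12, as examples of the 6 genes that were high together in that library. RefSeq promoters on GRCm38.p6 were matched for 59 of the 79 genes, and the 250 bases before the start were searched for the E-box CANNTG, the letters bound by myogenic and many other basic helix-loop-helix factors, which read the same on both strands. E-box letters are in capitals, written 5′ to 3′ on the strand of the gene.
Kcna7, chr7:45405710-45405959, plus strand: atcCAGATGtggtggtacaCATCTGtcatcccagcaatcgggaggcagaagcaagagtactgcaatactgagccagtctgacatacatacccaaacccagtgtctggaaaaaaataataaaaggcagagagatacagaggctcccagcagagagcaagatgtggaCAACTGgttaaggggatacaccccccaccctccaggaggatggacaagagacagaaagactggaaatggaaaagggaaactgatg
Kcng4, chr8:119635681-119635930, minus strand: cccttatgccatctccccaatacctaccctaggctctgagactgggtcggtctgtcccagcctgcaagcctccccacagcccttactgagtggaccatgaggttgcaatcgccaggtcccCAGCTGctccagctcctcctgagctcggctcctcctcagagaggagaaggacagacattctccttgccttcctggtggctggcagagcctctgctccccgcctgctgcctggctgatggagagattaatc
Kcnj12, chr11:61065554-61065803, plus strand: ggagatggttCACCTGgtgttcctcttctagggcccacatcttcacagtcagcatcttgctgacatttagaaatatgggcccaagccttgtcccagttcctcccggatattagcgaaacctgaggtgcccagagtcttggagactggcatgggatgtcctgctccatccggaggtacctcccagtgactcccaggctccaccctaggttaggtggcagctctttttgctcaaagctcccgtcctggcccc
Kcna7 held 3 matches, whose first bases lie 247, 231 and 85 bases before the start. Kcng4 held 1 match, at 130 bases, and Kcnj12 held 1, at 240 bases. Of the genes not shown, Kcnc1 and Kcnc4 held 1 match each, at 192 and 223 bases, and Kcnj11 had no matched promoter and was not searched. Of the 32851 RefSeq promoters, 66.2% held at least 1 match in the same window, as did 67.5% of the 83 promoters of Kcn genes. A match describes the letters and is not evidence of binding.

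Ranking the 12 libraries, tested Kcn genes among the most alike to Kcnk3, of the other 51, were Kcna2 (Spearman's rho 0.643), Kcna6 (0.629), Kcnk5 (0.622) and Kcnk1 (0.608). Those most alike to Kcna5 were Kcnj11 (0.678), Kcnj5 (0.643), Kcna7 (0.629), Kcnh2 (0.601) and Kcnh7 (0.58). The 12 points of each pair share their libraries and depth and include the 3 libraries with high skeletal muscle, adipocyte or red cell markers.

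Genes that work with these channels showed no passing difference either. Of 10 channel partners outside the symbol prefix, 6 were tested, and 4 of 6 were above 0 for 2 against 0 weeks and 2 of 6 for 5 against 0 weeks. Abcc8, the partner of Kcnj11 in beta cells, averaged 1.69 ± 0.77, 2.02 ± 0.97 and 0.973 ± 0.38 CPM at 0, 2 and 5 weeks (SD, n = 4). Of 20 other ion channel genes of vascular muscle 19 were tested, with 9 above 0 at 2 weeks and 4 at 5 weeks against controls. Cacna1c, the pore of the voltage-gated calcium channel that potassium channel closure opens, averaged 50.2 ± 7.49 CPM in the controls and 40.8 ± 9.64 CPM at 5 weeks (SD, n = 4, log2 difference -0.32 ± 0.16, limma adjusted p = 0.601). The lowest Cacna1c value was 27.4 CPM in 5-week replicate 3, against 41.2 to 49.9 CPM in the other 5-week libraries. All 9 potassium pump and cotransporter genes were tested, with 6 above 0 at 2 weeks and 2 at 5 weeks against controls. Atp1b1, a subunit of the sodium-potassium pump, averaged 488 ± 27.6 CPM in the controls and 410 ± 28.5 CPM at 5 weeks (SD, n = 4, log2 difference -0.25 ± 0.09, limma adjusted p = 0.543). In each list and comparison 0 genes passed (limma). Abcc8, Abcc9, Cacna1c and Atp1b1 were picked from their lists after their values were seen.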

How the data were processed

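Whole-lung RNA was sequenced in 12 mice, 4 per group. The authors deposited CPM values (counts per 1000000 gene-assigned reads, with 0.0001 added to every cell). Per the submitters' processing notes the tools were TopHat2 and Partek and the build mm10. Which versions, annotation, strand setting and filters were used is not stated. Gene starts mostly differ from GRCm38 (501 of 23073 matched genes have the same start), so gene positions stand as deposited. Between 87.3% and 88.0% of the low values were within 0.1 of a whole multiple of the step, so that whole reads could not be recovered. No count model was therefore fitted and no interval for counting error is given. Without stated strandedness, genes that overlap another gene (21 of the 79) cannot be told apart from it with certainty.

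Values were analysed as log2(CPM + 1), which understates differences of low genes, for the 15562 genes averaging 1 CPM or more. Limma 3.58.1 in R 4.3.3 fitted 3 group means over all 12 libraries with a variance trend, and two-sided p-values were adjusted by Benjamini-Hochberg over all genes (threshold 0.05). Mouse numbers pair no libraries, and replicates are numbered in the order of deposit. Exon lengths came from the union of GENCODE M21 exons, and tables, permutation tests and plots were made in Python 3.11.15 (pandas 2.3.3, numpy 2.4.6, matplotlib 3.10.9, scipy 1.17.1). On simulated data for 5 against 0 weeks (3 runs, 15523 genes in the last), limma made 27 false calls. It recovered 112 of 201 changes of 1.5-fold (55.7%), 162 of 201 of 2-fold (80.6%) and 189 of 198 of 4-fold (95.5%). Whether these shares hold for the measured libraries was not tested. The measured libraries include 3 with high skeletal muscle, adipocyte or red cell markers. The shares are therefore not given as the chance of finding a Kcn change here.

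The genes and lists were chosen with earlier results of these data known. The rule names Kcnk3 and Kcna5, the 5 smallest p-values per comparison, the 10 highest levels per exon length and genes whose treated libraries do not overlap the controls, 23 genes in all. Some genes are not reported here. Further genes are named as picked once their values were known. The alternatives were a pseudocount of 0.1 or 5, a lower filter of 0.1 CPM or none, scaling by quantiles or by median of ratios, robust moderation, library weights, fitting the compared groups alone, and leaving out libraries.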

Additional observations from a re-analysis of the deposited data

Results flagged for a closer look

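In 8 of 102 groups of 4 libraries examined, 1 library stood apart from the other 3 by Dixon's criterion, which flags about 1 in 20 by chance. The flagged genes Kcna7, Kcnc1, Kcng4, Kcnn1 and Kcnn3 were chosen after their values were seen. The count of flags can therefore not be compared with that rate. In 2-week replicate 3, the library with skeletal muscle transcripts, Kcnc1 stood at 6.59 CPM (0.165 to 0.436 in the other 2-week libraries), Kcng4 at 5.95 CPM (0.0659 to 0.187) and Kcnn1 at 4.19 CPM (2.04 to 2.19). In control replicate 2, Kcna7 stood at 2.21 CPM (0.473 to 0.492 in the other controls) and Kcnd3 at 4.08 CPM (2.80 to 2.90). Kcnk2 stood at 53.9 CPM in control replicate 1 (43.3 to 44.7). Kcnn3 stood at 10.96 CPM in 2-week replicate 4 (3.88 to 4.22), the only 2-week library whose alveolar macrophage markers were not low. Kcnd3 stood at 2.31 CPM in 5-week replicate 3 (2.55 to 2.58).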

How the results depend on the processing

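The number of Kcn genes past the threshold was 0 in each comparison and stayed at 0 in the alternatives run, with 2 exceptions. With library weights, 4 of 52 genes passed for 5 against 2 weeks, where 5.66% of all tested genes did. They were Kcnab2, Kcnn3 (log2 difference 0.93), Kcnip2 (-0.53) and Kcnj11 (-1.13). In the F-test 1 of 52 passed with library weights (Kcnab2), where 1.84% of all tested genes did. Without 2-week replicate 4, 1 passed for 5 against 2 weeks and 1 in the F-test, Kcnab2 in both, so leaving out single libraries gave 0 to 1. Of all tested genes 2.48% and 0.848% passed there. For 2 against 0 and 5 against 0 weeks, leaving out single libraries gave 0 to 0. The log2 difference of Kcna5 for 2 against 0 weeks turned to -0.028 with library weights, and leaving out single libraries gave -0.13 to 0.28. It was -0.13 without control replicate 3, -0.017 without control replicate 4 and -0.054 without 2-week replicate 3. For 5 against 0 weeks Kcna5 ran from -0.32 to 0.087, the latter without control replicate 2. Kcnk3 for 5 against 0 weeks was 0.029 without control replicate 2, 2-week replicate 3 and 5-week replicate 3 together. The cause of these changes was not tested. No scaling moved the median of all genes by 0.1 or more. Tests on recovered reads with other tools were not run, since whole reads could not be recovered. No paired analysis was possible because the mouse numbers differ between the groups. Groups of 4 mice limit the detectable change, and genes under 1 CPM were not tested.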
